A study of Homo sapiens with 9 samples.

Results

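Receptor tyrosine kinases are single-pass membrane proteins that bind a growth factor, a membrane-bound ligand or collagen outside the cell and phosphorylate tyrosines inside it. The phosphotyrosines recruit adaptor proteins, which pass the signal to the RAS, PI3K and phospholipase C pathways that govern growth, survival and migration. Phosphatases, ubiquitin ligases and endocytosis end the signal. Microglia of the brain depend on the receptor CSF1R, PDGFRB marks pericytes, and PDGFRA and DDR2 are common in fibroblasts. The RNA levels of 10 genes of this family are described here, namely KIT, PDGFRA, PDGFRB, EGFR, MET, FGFR1, IGF1R, INSR, EPHA2 and DDR2. They were picked by name, with earlier results of these data in view, from 61544 listed genes, of which 14727 were tested, and all 10 were among those tested. Since the choice was not independent of the comparisons, the values of the 10 genes are given as a description and without p-values.

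RNA was sequenced from HMC3 cells, a human line labelled as immortalized microglia of WT genotype and made with the SV40 T antigen, so every group carries that antigen. SLO cells received 10 μM SBI-0206965 (which blocks ULK1, a kinase that starts autophagy), 1 μM O-151 (an inhibitor of the DNA glycosylase OGG1) and 1 μM Lopinavir (which blocks Lamin A maturation) for 6 consecutive days. SLO 1/2 cells received 5 μM SBI-0206965 with 0.5 μM of each of the other compounds, and VEH cells received DMSO alone, also for 6 days. Each group had 3 libraries, and since the labels do not say whether these came from separate cultures, the errors may measure technical spread only. Both doses were compared with the same VEH libraries.

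Libraries held 14834295 to 19674841 reads in genes. Levels are CPM (counts scaled to library size) after TMM, a normalization that equalizes composition between libraries, and changes are log2 fold changes with standard errors (SE) from a quasi-likelihood fit of edgeR to all 9 libraries. A gene was called where the p-value, adjusted over all tested genes by the Benjamini-Hochberg method, was below 0.05. Replicates differed by more than counting error, with a chi-square per degree of freedom of 1.77 to 4.01. Of 15 microglia markers only CSF1R and TREM2 were abundant enough to be tested, and P2RY12, GPR34, C1QA, C1QB and C1QC had no count in any library. The summed microglia markers reached 0.525 to 0.889 CPM in VEH, 1.59 to 2.40 in SLO 1/2 and 1.94 to 2.12 in SLO. Of 12 mesenchymal markers 8 were tested, and the list summed to 4930 to 5260, 6290 to 6390 and 6830 to 7190 CPM, respectively. COL1A1 alone averaged 2368, 2661 and 3309 CPM. In SLO against VEH 6 of the 8 were called higher and 1 lower (87.5% called, beside 64.9% of all tested genes). Both sums moved with treatment, as did many of the receptors below, and their part in the receptor values was not tested. In bulk RNA, a change in the number of cells of one kind and a change in RNA per cell cannot be told apart.

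KIT and EGFR stand at the ends of the range of changes among the 10 genes, so the sequence upstream of each is shown for reference. Both windows come from RefSeq (GRCh38.p14, plus strand) and lie within 250 bases before the RefSeq start, and 9 of the 10 genes matched that table. The KIT window chr4:54657707-54657888 was ended where the earliest overlapping exon of GENCODE v44 begins; it lies inside the gene as the files give it but outside its exons, since 1 GENCODE transcript starts farther upstream. The EGFR window chr7:55018767-55019016 ends at the base before the gene. Capitals mark the GC box GGGCGG on either strand, a motif known to bind SP1-family factors.
KIT: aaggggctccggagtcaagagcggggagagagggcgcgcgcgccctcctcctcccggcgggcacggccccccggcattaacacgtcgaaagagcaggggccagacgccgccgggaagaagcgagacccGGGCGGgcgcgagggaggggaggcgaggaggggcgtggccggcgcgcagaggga
EGFR: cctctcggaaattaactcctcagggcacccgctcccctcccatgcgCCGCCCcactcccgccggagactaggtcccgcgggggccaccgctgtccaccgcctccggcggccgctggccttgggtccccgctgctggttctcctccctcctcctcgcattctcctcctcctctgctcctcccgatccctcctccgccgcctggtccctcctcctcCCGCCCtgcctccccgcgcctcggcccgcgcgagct
The KIT window holds 1 GC box and 75.8% G or C, and the EGFR window holds 2 boxes and 73.6% G or C. Of 35116 RefSeq windows of 250 bases, 42.6% held the box on either strand. The AP-1 site, spelled TGACTCA and searched in the same way, occurs in neither printed window and in 4.2% of all windows. The TATA box, searched as TATAAA, is absent from both printed windows and present in 10.7% of all. RefSeq lists a second EGFR start farther downstream, whose window begins at position 55109589 of chromosome 7. That window differs in content, with no GC box, 2 AP-1 sites, 2 TATA boxes and 38.8% G or C, and the gene counts do not separate the EGFR starts. These matches describe letters only, and no factor was measured at either site.

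KIT, the receptor of stem cell factor, rose step by step with dose. Its gene (ENSG00000157404.17) lies on chromosome 4 from 54657267 to 54740783. In VEH, KIT stood at 55.9, 57.0 and 55.5 CPM. In SLO 1/2 it stood at 116.5, 113.4 and 117.5 CPM. In SLO it reached 193, 180.6 and 199.5 CPM. The 3 groups did not overlap, and each library of a higher dose lay above every library of a lower one. The log2 fold change was 1.77 (SE 0.0455) in SLO, a 3.40-fold difference, and 1.04 (SE 0.0466) in SLO 1/2. Between the doses it was 0.72 (SE 0.0421).

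**Figure D1:**
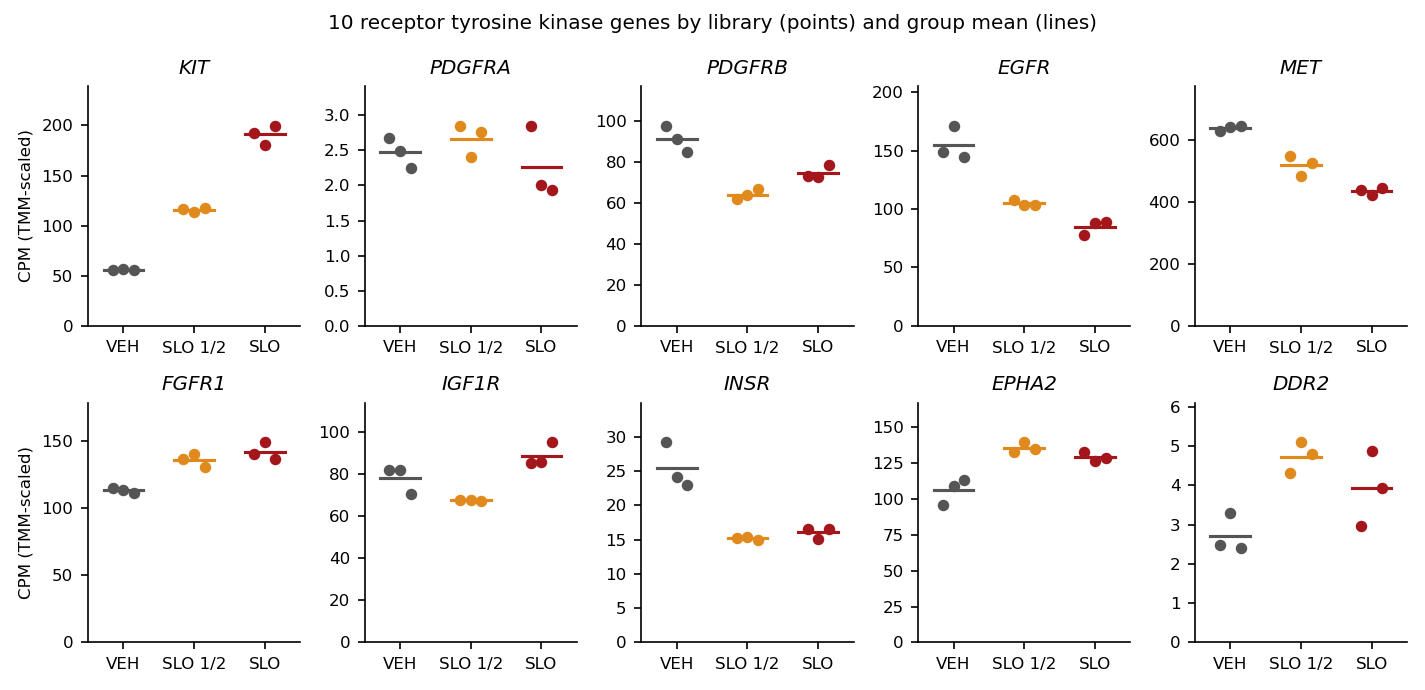
CPM (counts scaled to library size with TMM, vertical axes from 0, each gene on its own scale) of the 10 receptor genes in VEH, SLO 1/2 and SLO. Points are libraries and lines are means of 3. KIT climbs from about 56 to 191 CPM, EGFR and MET descend with dose, and the 3 SLO 1/2 points of IGF1R lie below all others.

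The PDGF receptors are the nearest relatives of KIT among the 10. PDGFRA (ENSG00000134853.12, chromosome 4, 54229280 to 54298245), which binds PDGF-A and PDGF-C among others, lies upstream of KIT on the same chromosome. It was scarce, with 29 to 50 counts per library. It measured 2.67, 2.495 and 2.25 CPM in VEH, 2.84, 2.40 and 2.75 in SLO 1/2 and 2.85, 2.00 and 1.93 in SLO, so all groups overlapped. At this depth no difference was detectable, with a log2 fold change in SLO of −0.12 and a 95% interval from −0.53 to 0.29. PDGFRB (ENSG00000113721.14, chromosome 5, 150113839 to 150155872), the PDGF-B receptor of pericytes, was far more abundant. It fell from 97.7, 91.3 and 84.8 CPM in VEH to 61.8, 63.8 and 66.8 CPM in SLO 1/2. In SLO it was 73.4, 73.0 and 78.6 CPM, above every SLO 1/2 library and below every VEH library. The lower dose therefore had the larger difference from VEH, with log2 fold changes of −0.51 (SE 0.0518) in SLO 1/2 and −0.28 (SE 0.0514) in SLO, and the doses differed by 0.22 (SE 0.0529).

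EGFR and MET, receptors of the EGF family and of hepatocyte growth factor, declined at each dose. EGFR (ENSG00000146648.20, chromosome 7, 55019017 to 55211628) measured 148.5, 171 and 144.5 CPM in VEH. It measured 108, 103 and 103 CPM in SLO 1/2, and 78.0, 87.9 and 89.2 CPM in SLO. The groups formed 3 separate steps, the log2 fold change was −0.86 (SE 0.0552) in SLO and −0.56 (SE 0.0538) in SLO 1/2, and SLO lay 0.30 (SE 0.0565) below SLO 1/2 on the log2 scale. MET (ENSG00000105976.16, chromosome 7, 116672196 to 116798377), with 6685 to 12365 counts per library, was the most deeply measured of the 10. Its values were 630, 642 and 646 CPM in VEH, 548, 485 and 525 in SLO 1/2 and 439, 424 and 444.5 in SLO. Again the groups did not overlap, with log2 fold changes of −0.55 (SE 0.0426) in SLO and −0.30 (SE 0.0423) in SLO 1/2. The last step, from SLO 1/2 to SLO, was −0.25 (SE 0.0426).

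FGFR1 (ENSG00000077782.22, chromosome 8, 38400215 to 38468834), a receptor of fibroblast growth factors, was higher at both doses. It measured 115, 113 and 112 CPM in VEH, 136, 140 and 131 in SLO 1/2 and 140, 149 and 137 in SLO. Both treated groups lay above VEH and overlapped each other. The log2 fold change was 0.33 (SE 0.0433) in SLO and 0.26 (SE 0.0432) in SLO 1/2, and the dose step of 0.06 had a 95% interval from −0.02 to 0.15. The locus overlaps LETM2, which had up to 326 counts in a library, and counting was stated to be by strand.

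The insulin-like and insulin receptors, which share ligands and form hybrids, did not move alike. IGF1R (ENSG00000140443.15, chromosome 15, 98648539 to 98964530) measured 82.0, 81.9 and 70.7 CPM in VEH and 67.9, 67.8 and 67.5 CPM in SLO 1/2. In SLO it measured 85.3, 86.0 and 95.2 CPM. It is the 1 gene of the 10 with called differences from VEH in opposite directions, at −0.20 (SE 0.0548) in SLO 1/2 and 0.19 (SE 0.0537) in SLO, with 0.39 (SE 0.0543) between the doses. The position of SLO above VEH rested on few libraries. Without VEH replicate 3 the log2 fold change was 0.11 and without SLO replicate 3 it was 0.13, and in neither case was it called. INSR (ENSG00000171105.14, chromosome 19, 7112255 to 7294414) measured 29.1, 24.1 and 22.9 CPM in VEH, 15.3, 15.3 and 14.9 in SLO 1/2 and 16.5, 15.1 and 16.5 in SLO. All treated libraries lay well below VEH, with log2 fold changes of −0.74 (SE 0.0838) and −0.66 (SE 0.0840), and the doses differed by 0.08 with a 95% interval from −0.11 to 0.26.

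EPHA2 (ENSG00000142627.13, chromosome 1, 16124337 to 16156069) binds ephrin-A proteins on neighbouring cells. It measured 95.8, 109 and 113 CPM in VEH, 132.8, 139.5 and 135 in SLO 1/2 and 132.7, 127 and 128 in SLO. Treated libraries were all above VEH, with the log2 fold change at 0.35 (SE 0.0487) in SLO 1/2 and 0.28 (SE 0.0491) in SLO. DDR2 (ENSG00000162733.19, chromosome 1, 162631373 to 162787405), a receptor for fibrillar collagen, was nearly as scarce as PDGFRA, with 39 to 89 counts per library. It measured 2.48, 3.28 and 2.40 CPM in VEH, 4.32, 5.09 and 4.79 in SLO 1/2 and 2.97, 4.88 and 3.92 in SLO. SLO 1/2 stood clear of VEH with a log2 fold change of 0.81 (SE 0.180), while SLO overlapped VEH at 0.54 (SE 0.188). That value was not called without VEH replicate 3 (0.45) or without SLO replicate 2 (0.34). Without SLO replicate 2, the difference between the doses grew from −0.27 to −0.46 and was called.

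**Figure D2:**
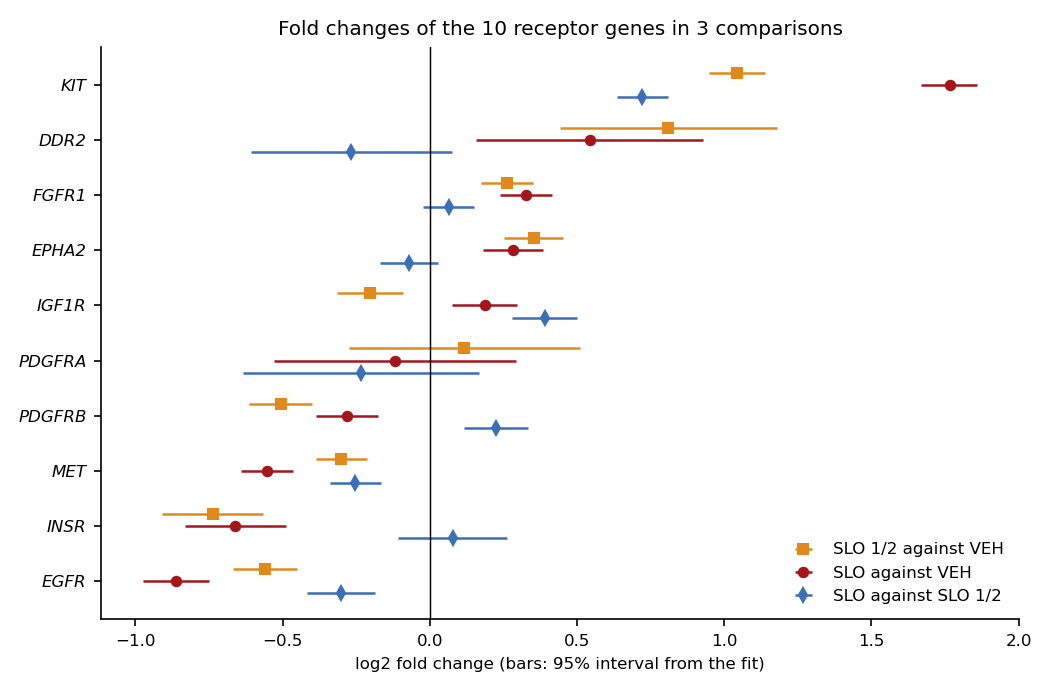
Log2 fold changes of the 10 receptor genes (horizontal axis, 0 marks no difference) for SLO 1/2 against VEH, SLO against VEH and SLO against SLO 1/2. Symbols are estimates and bars 95% intervals from the fit. KIT lies farthest to the right at 1.77, EGFR farthest to the left at −0.86, and the intervals of PDGFRA cross 0 in all 3 comparisons.

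Counted together, 5 of the 10 genes were called higher and 4 lower in SLO against VEH, and 4 were higher and 5 lower in SLO 1/2 against VEH. Between the doses, 3 were higher in SLO and 2 lower. The same rule called 64.9% of all tested genes in SLO against VEH (32.9% higher and 32.1% lower), 52% in SLO 1/2 against VEH (26.7% and 25.3%) and 41.1% between the doses (20.8% and 20.3%). CPM ranges did not overlap for 8, 9 and 6 of the 10 genes in these comparisons. Over all tested genes the shares were 66.7%, 58.3% and 51%. The median log2 fold change of the 10 was 0.03 in SLO and −0.04 in SLO 1/2, beside 0.01 and 0.02 over all tested genes. Since the choice of the 10 used these contrasts, nothing is read from the counts. Without VEH replicate 3, the count in SLO against VEH was 7, as the calls of IGF1R and DDR2 were lost.

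Levels of different genes were compared in TPM, which scales for gene length as well as for library size. MET led the 10 genes in every group, at 416 ± 7.82 TPM in VEH (mean ± SD, n = 3), 329 ± 24.7 in SLO 1/2 and 282 ± 7.16 in SLO. EPHA2 followed with 121 ± 11.1, 150 ± 1.92 and 146 ± 3.61 TPM. In VEH the order went on with PDGFRB at 60.2 and EGFR at 58.2, whose ranges overlapped, then FGFR1 at 31.0, IGF1R at 26.4, KIT at 23.3 and INSR at 11.0. PDGFRA at 1.22 and DDR2 at 1.15 overlapped at the bottom. In SLO 1/2 no neighbours overlapped, and KIT took the third place with 46.7 ± 1.57 TPM, ahead of PDGFRB at 41.1 and EGFR at 38.3. In SLO, KIT held that place with 79.0 ± 3.997 TPM, while EGFR at 31.8 had come down to the level of IGF1R at 29.8, with overlapping ranges. Among all 58 human receptor tyrosine kinase genes KIT ranked 14 in VEH, 6 in SLO 1/2 and 5 in SLO.

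The family as a whole summed to 2134 ± 33.9 TPM in VEH, 1756 ± 57.8 in SLO 1/2 and 1692 ± 41.2 in SLO. AXL, a receptor of the ligand GAS6 that serves in the clearance of dying cells, led every group with 977, 658 and 521 TPM. It made up 45.8%, 37.5% and 30.8% of the family sum, respectively. The 10 described genes summed to 749.5 ± 16.9 TPM in VEH, 672.4 ± 26.4 in SLO 1/2 and 666.6 ± 13.9 in SLO, so their own sum was lower at both doses. Their share still rose, since the family sum fell by a larger part. Most of that fall lay in AXL alone, so the higher share does not reflect a gain of the 10 genes. They made up 35.1% in VEH, 38.3% in SLO 1/2 and 39.4% in SLO. Within that part KIT went from 1.09% to 2.66% and 4.67% of the family sum. MET went from 19.5% to 18.7% and 16.7%. TPM are shares of each library, so these sums describe relative RNA only.

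**Figure D3:**
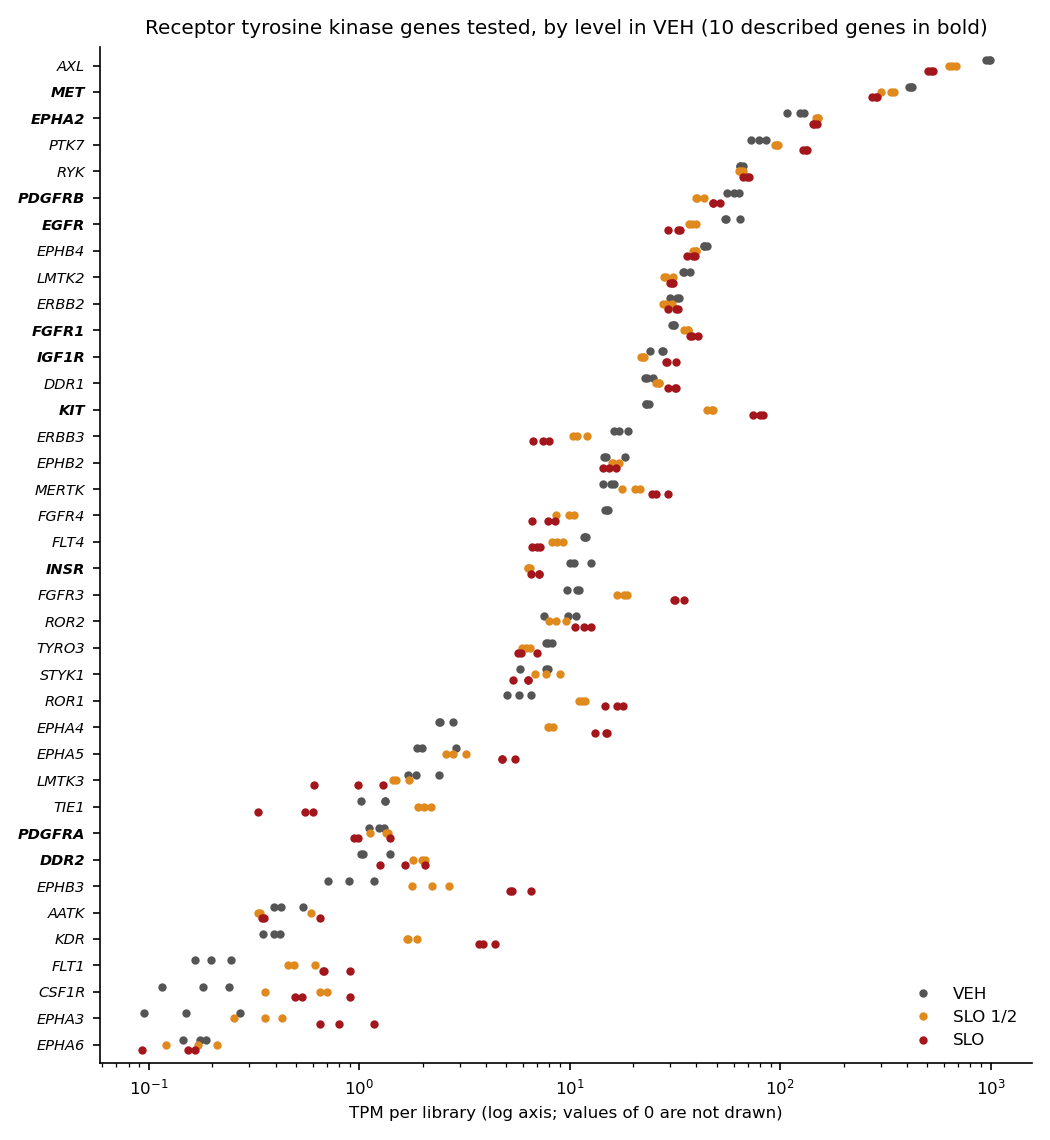
TPM per library (log axis) of the 38 receptor tyrosine kinase genes that were tested, ordered by their VEH mean, with the 10 described genes in bold. Each point is a library. AXL lies at the top with 977 TPM in VEH and 521 in SLO, MET comes next, and KIT moves from the middle of the family to 79.0 TPM.

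To find genes with a similar course, the distance between centred log2 CPM over 9 libraries was computed between each of the 10 and every other tested gene. KIT lay nearest to SDC2, a membrane proteoglycan (distance 0.0988), and MCAM, an adhesion molecule (0.136). SDC2 went from 67.8 to 144 and 234 CPM over the groups. EGFR lay nearest to POU2F1, a transcription factor (0.123), and MKI67, a marker of cycling cells (0.141), which went from 1470 to 962 and 792 CPM. MET lay nearest to TXNDC15 (0.101) and CBX3 (0.111), PDGFRB to LANCL1 (0.138) and FADS2 (0.148), and FGFR1 to CCDC82 (0.0951) and FLYWCH1 (0.112). IGF1R lay nearest to TTC3 (0.129) and KANK2 (0.151), and INSR to NAB2 (0.205) and ZNF429 (0.210). EPHA2 lay nearest to GDAP1 (0.121) and NRBF2 (0.127), and the scarce PDGFRA and DDR2 to CHST7 (0.278) and ABHD16A (0.281), with FUZ (0.305) and MIR22HG (0.375) next. No gene of the 10 had another of the 10 as its nearest gene. The closest pair among them was FGFR1 and EPHA2, at 0.300. Of 14726 genes, EPHA2 ranked only 762 in nearness to FGFR1, and FGFR1 ranked 336 in nearness to EPHA2. The distance is not scaled for the size of change, so genes that change little lie near each other. From a flat course FGFR1 lay 0.437, EPHA2 0.503 and the scarce PDGFRA 0.568.

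The rest of the family was examined as a list of 48 genes taken whole. Of these, 28 were tested, and in SLO 13 were higher and 9 lower than in VEH (78.6%, beside 64.9% of all tested genes). In SLO 1/2 the counts were 12 and 7 (67.9%, beside 52%), and between the doses 11 were higher in SLO and 7 lower (64.3%, beside 41.1%). The median log2 fold change in SLO was 0.05. KDR, FLT1, CSF1R and EPHA3, with 2 to 10 counts per VEH library, passed the expression filter through treated libraries. They could hardly be called lower, and they add to the higher count in SLO. KDR, a VEGF receptor whose gene neighbours KIT on chromosome 4 (55078481 to 55125595), was at 0.572, 0.525 and 0.470 CPM in VEH. It rose to 2.33, 2.40 and 2.58 CPM in SLO 1/2 and to 5.99, 5.00 and 5.25 CPM in SLO. The groups did not overlap, and the log2 fold change in SLO was 3.37 (SE 0.222, edgeR quasi-likelihood test, adjusted p = 9.56e-14). Since KDR was tested only through its treated libraries, this p-value is not independent of the filter. With 8 to 9 counts per VEH library the size of the fold is uncertain, and limma on log2(TPM + 1), a scale that shrinks changes of scarce genes, gave 1.85. Of the 3 neighbours on chromosome 4, KIT and KDR were thus higher in every treated library than in any VEH library, and PDGFRA overlapped between groups.

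The other genes named here are mostly those with the smallest p in SLO, so they do not speak for their subfamilies. The ephrin receptor EPHA4 went from 3.81 to 4.51 CPM in VEH to 21.3 to 24.3 in SLO (log2 fold change 2.51, edgeR adjusted p = 1.82e-18), and EPHB3 rose by 2.64 (adjusted p = 1.27e-11), while EPHB2 was at −0.03 (adjusted p = 0.702) and EPHA6 at −0.29 (adjusted p = 0.499). The Wnt-binding receptors ROR1 and PTK7 rose by 1.52 (edgeR adjusted p = 3.43e-14) and 0.74 (adjusted p = 3.76e-14), whereas RYK, of the same group, was at 0.09 (adjusted p = 0.0595) and passed the threshold without SLO replicate 2 (0.12). FGFR3 rose by 1.64 (edgeR adjusted p = 8.45e-17), and FGFR4 fell by 0.95 on the log2 scale (adjusted p = 2.45e-09). EPHB2, EPHA6 and FGFR4 were added after their values were seen. Falls were found for AXL, at −0.90 (edgeR adjusted p = 9.16e-18), and ERBB3, a partner of EGFR without strong kinase activity of its own, at −1.24 (adjusted p = 1.16e-14). EPHB4 fell by 0.21 on the log2 scale (adjusted p = 0.000779), or by 0.13 with library size only.

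Ligands were taken from lists for each receptor, in which 24 of 39 genes were tested. In SLO against VEH 16 were higher and 4 lower (83.3% called, beside 64.9% of all tested genes). In SLO 1/2 against VEH the counts were 13 and 4 (70.8%, beside 52%), and between the doses 13 were higher in SLO and 3 lower (66.7%, beside 41.1%). The median log2 fold change in SLO was 0.54, beside 0.01 over all tested genes. FGF9, FGF18, PDGFD, COL2A1 and EGF, with 2 to 10 counts per VEH library, passed the expression filter through treated libraries. They could hardly be called lower, and they add to the higher calls in SLO and to this median. Their p-values below are not independent of that filter. KITLG, which encodes stem cell factor, was at 9.84, 11.8 and 10.8 CPM in VEH, 35.1, 36.0 and 36.1 in SLO 1/2 and 63.2, 62.9 and 62.0 in SLO. As with its receptor, the groups formed 3 separate steps. The log2 fold change was 2.54 in SLO (SE 0.0663, edgeR adjusted p = 3.93e-23), 1.73 in SLO 1/2 (adjusted p = 6.27e-18) and 0.81 between the doses (adjusted p = 1.21e-12).

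Among the PDGF genes, PDGFB rose by 1.45 (edgeR adjusted p = 1.71e-10) and PDGFD by 2.34 (adjusted p = 9.37e-09) in SLO. PDGFD had 6 to 10 counts per VEH library, so its fold is uncertain (1.32 with limma on log2(TPM + 1)). PDGFC, the most abundant, fell from 72.7 to 77.8 CPM in VEH to 40.1 to 43.95 in SLO (−0.82, adjusted p = 1.98e-13). PDGFA was 0.60 higher (edgeR adjusted p = 0.0028), a call lost without SLO replicate 1 (0.40). Of the EGFR ligands, TGFA rose by 1.63 (edgeR adjusted p = 1.07e-15) and HBEGF by 0.94 (adjusted p = 9.17e-15), while the receptor itself declined. EGF, with 7 to 20 counts per library, was 1.06 higher (edgeR adjusted p = 0.0074), was not called without VEH replicate 3 (0.84) and was at 0.32 with limma on log2(TPM + 1). AREG was at −0.11 in SLO (edgeR adjusted p = 0.821), but in SLO 1/2 it was 0.99 higher than in VEH (adjusted p = 0.0158), and SLO lay below SLO 1/2 at −1.10 (adjusted p = 0.0118). With 6 to 25 counts per library, the SLO 1/2 call was lost without VEH replicate 3 (0.64) or SLO 1/2 replicate 2 (0.81), and the call between the doses without SLO 1/2 replicate 2 (−0.92) or SLO replicate 1 (−0.96). DESeq2 called neither difference. AREG passed the expression filter only through its SLO 1/2 libraries, so both calls rest on the group that let it be tested. HGF, the ligand of MET, had no count in any library.

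Of 12 listed ligands of FGFR1, 5 were tested, and in SLO 4 were called higher and 1 lower, beside 64.9% of all tested genes called. FGF9 and FGF18 were tested through their treated libraries, so nothing is read from this count. FGF5, at 461 to 561 CPM in VEH, fell by 0.71 on the log2 scale (edgeR adjusted p = 3.12e-13). FGF2 and FGF1 rose by 0.29 (edgeR adjusted p = 7.46e-07) and 0.86 (adjusted p = 8.32e-14). FGF9 and FGF18 rose by 3.36 (edgeR adjusted p = 1.73e-09) and 2.50 (adjusted p = 6.44e-07), from 2 to 4 and 2 to 9 counts per VEH library, so the sizes of these folds are uncertain (1.35 for FGF9 with limma on log2(TPM + 1)). IGF2 was the tested ligand of IGF1R and INSR, and it fell by 0.75 on the log2 scale (edgeR adjusted p = 4.28e-12). Of the ephrin-A ligands of EPHA2, EFNA5 rose by 0.47 (edgeR adjusted p = 6.51e-08) and EFNA2 was at −0.60 (adjusted p = 0.00959). The EFNA2 call was lost without VEH replicate 1 (−0.43) or SLO replicate 1 (−0.47). EFNA1, EFNA3 and EFNA4 were at 0.16, −0.15 and 0.28 and were not called.

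Of 6 listed collagens that bind DDR2, 4 were tested and called higher in SLO, beside 32.9% of all tested genes. COL2A1 was tested through its treated libraries, so nothing is read from this count. COL5A1 rose from 162 to 228 CPM in VEH to 574 to 614 in SLO (log2 fold change 1.55, edgeR adjusted p = 1e-17). COL1A1 rose by 0.48 (edgeR adjusted p = 8.18e-10) and COL1A2 by 0.25 (adjusted p = 0.000135), or 0.16 without VEH replicate 3. In SLO 1/2 against VEH, COL1A2 was at −0.09 and not called. The COL1A1 call there (0.17) was lost without VEH replicate 3 (0.11) and with limma on log2(TPM + 1) (0.13). COL2A1 rose by 3.44 (edgeR adjusted p = 2.97e-09) from 2 to 5 counts per VEH library, so its fold is uncertain as well (1.24 with limma on log2(TPM + 1)). COL1A1 and COL1A2 are also among the mesenchymal markers whose sum was higher in the treated groups.

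**Figure D4:**
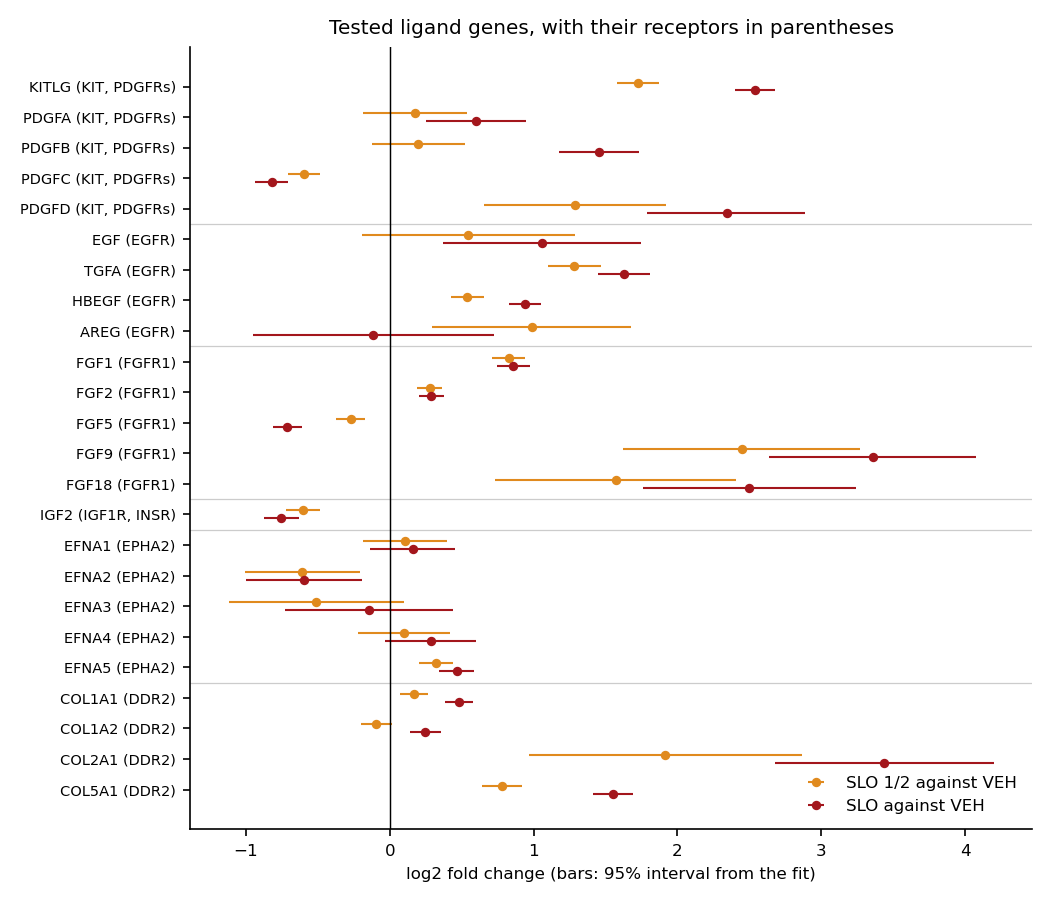
Log2 fold changes (horizontal axis) of the 24 tested ligand genes in SLO 1/2 and SLO against VEH, grouped by receptor, with 95% intervals from the fit as bars. KITLG lies at 2.54 in SLO, PDGFC, FGF5 and IGF2 lie left of 0 at both doses, and the wide bars belong to ligands with few counts.

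Downstream of the receptors, 16 adaptors and effectors were tested. In SLO 7 were higher and 6 lower than in VEH (81.2% called, beside 64.9% of all tested genes). In SLO 1/2 4 were higher and 5 lower (56.2%, beside 52%), and between the doses 6 were higher in SLO and 1 lower (43.8%, beside 41.1%), both close to the share over all genes. The 4 named next had the smallest p in SLO against VEH, so they do not speak for the list. IRS1, the docking protein of IGF1R and INSR, fell from 109 to 111 CPM in VEH to 74.7 to 74.9 in SLO 1/2 and 56.3 to 61.0 in SLO (log2 fold change −0.90, edgeR adjusted p = 1.72e-16). PIK3R1, the regulatory subunit of PI3K, rose by 1.16 (edgeR adjusted p = 3.77e-15). SOS1, which activates RAS, fell by 0.50 on the log2 scale (edgeR adjusted p = 1.48e-11), and PTPN11, the phosphatase SHP2 that aids RAS signalling, fell by 0.37 (adjusted p = 1.29e-08).

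Of 17 negative regulators, 6 were higher and 7 lower in SLO (76.5% called, beside 64.9% of all tested genes). The counts were 6 and 5 in SLO 1/2 (64.7%, beside 52%), and 4 were higher and 5 lower in SLO than in SLO 1/2 (52.9%, beside 41.1%). ERRFI1, an inhibitor of the EGFR kinase, rose by 0.60 (edgeR adjusted p = 2.02e-11), and GRB10, which restrains IGF1R and INSR, rose by 0.96 (adjusted p = 1.93e-10). The receptor phosphatase PTPRK, known to act on EGFR, rose from 37.3 to 40.1 CPM in VEH to 62.9 to 69.2 in SLO 1/2 and 63.2 to 70.2 in SLO (log2 fold change 0.75, edgeR adjusted p = 1.38e-12). PTPRF, a relative of PTPRK, fell by 0.60 on the log2 scale (adjusted p = 2.03e-13). RNA levels alone were measured, and neither receptor protein nor phosphorylation was assessed in these libraries.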

How the data were processed

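RNA of 9 HMC3 libraries was analysed, grouped by sample titles. The authors selected poly-A RNA, used the KAPA RNA HyperPrep kit, applied Trimmomatic 0.38 to the reads and STAR 2.7.1a for alignment to GRCh38, and deposited strand-specific whole-number counts per gene, without normalization. They also deposited TPM; the annotation release and the tool behind the TPM are not given in the sources used here. Summary lines without a gene were left out (multiple matches 7.16% to 8.52%, no feature 5.54% to 8.38%, ambiguous 3.03% to 3.26%, unmapped 0.883% to 0.984% of reads).

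Counts were fitted in R 4.3.3 with edgeR 4.0.16 (filterByExpr, TMM 0.968 to 1.035, quasi-likelihood test, 3 groups, all 9 libraries, Benjamini-Hochberg over 14727 genes, called below 0.05). CPM are computed from counts. SE were derived from the fold change and the F statistic. Likeness was computed on log2 CPM (prior count 2). The steps were tested on simulated data. Alternatives were another tool (DESeq2 1.42.0, or limma 3.58.1 on TPM with a pseudocount of 1 or 0.1, with and without the filter), another scaling (size factors of DESeq2, or none beyond library size), another filter (none, or a minimum of 10 counts throughout), a replicate block, a fit to just the 2 groups concerned, and leaving out each library.

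The 10 genes and all lists were chosen with earlier results of these data known. Named genes are the 10, the 8 other family members ranked first by p for SLO against VEH and those above the median TPM of the 10, KDR, each tested ligand, and the 4 adaptors and 4 negative regulators ranked first in the same way. Promoter windows came from RefSeq, and GENCODE v44 gave the same coordinates for all 10 genes as the files. The sequence upstream of FGFR1 and 1 gene of a marker list are not reported here.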

Additional observations from a re-analysis of the deposited data

How the results depend on the processing

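Of 570 values of the 10 receptor genes under the alternatives, 559 kept their direction and side of the threshold, 10 lost their call and 1 gained one, and none turned direction. Beyond the left-out libraries named above, DDR2 in SLO against VEH was not called with limma on log2(TPM + 1) (0.30) or log2(TPM + 0.1) (0.47), and unfiltered TPM lost the calls of IGF1R (0.17) and DDR2 in SLO against VEH, of DDR2 in SLO 1/2 against VEH (0.46) and of EGFR between the doses (−0.26). Left-out libraries gave 7 to 9, 9 and 5 to 6 calls among the 10 genes and 9015 to 9604, 6845 to 7745 and 5231 to 6277 among all genes in SLO against VEH, SLO 1/2 against VEH and SLO against SLO 1/2. No count of calls moved by more than 1.5 times. With library size only, the median gene shifted by 0.07 in SLO against VEH, and RYK (0.16) and EFNA4 (0.36) gained a call there. In the same comparison EFNA4 also gained a call with limma on log2(TPM + 1) (0.26) and log2(TPM + 0.1) (0.28). RYK also gained one with a minimum of 10 counts throughout (0.11). Libraries with the same replicate number deviated together only weakly (correlations 0.00277 to 0.0873), so the numbers were not taken as pairs. Each SLO 1/2 library correlated best with the VEH library of its own number, as did SLO replicates 1 and 2 but not 3. Against SLO 1/2, only SLO replicate 2 did so. With the replicate block, 9622, 7749 and 6162 genes and 9, 9 and 5 of the 10 genes were called.

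Directions turned only among genes without a call in that comparison. In SLO against VEH, left-out libraries gave AREG −0.47 to 0.28 (0.0288 without SLO replicate 1) and EFNA3 −0.45 to 0.0136. In SLO 1/2 against VEH they gave EFNA1 −0.0252 to 0.18, and RYK was −0.000666 with log2(TPM + 1), filtered or not, and −0.000677 with log2(TPM + 0.1). Between the doses the ranges were −0.0254 to 0.0310 for FGF2, −0.0254 to 0.18 for EFNA1, −0.13 to 0.14 for EFNA2 and −0.0472 to 0.0400 for PTPRK, and PTPRK was −0.00292 without a filter and −0.000332 with only the 2 groups. The 3 libraries per group and 29 to 89 counts per library limit PDGFRA and DDR2, whose intervals are the widest of the 10.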

Other observations

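A few other receptors, chosen here after their values were seen, had courses not described above. TIE1, an orphan receptor of endothelial cells, lay above VEH in SLO 1/2 and below it in SLO, at 1.91, 1.44 and 1.88 CPM in VEH, 2.78, 3.26 and 2.94 in SLO 1/2 and 0.787, 0.471 and 0.864 in SLO. The log2 fold changes were 0.77 (edgeR adjusted p = 0.00207) and −1.31 (adjusted p = 0.000155), and the doses differed by −2.08 (adjusted p = 8.36e-08). AXL and MERTK, relatives that bind the same ligand GAS6, went opposite ways, since MERTK rose by 0.80 in SLO (edgeR adjusted p = 2.99e-09) and the third member, TYRO3, fell by 0.36 on the log2 scale (adjusted p = 0.00059). Among the VEGF receptors FLT4 fell by 0.76 on the log2 scale (edgeR adjusted p = 1.3e-09), whereas FLT1 rose by 1.89 (adjusted p = 1.41e-06). FLT1, with 7 to 10 counts per VEH library, passed the expression filter through treated libraries, so its p-value is not independent of that filter. CSF1R, the receptor that microglia depend on, had 2 to 5 counts per VEH library and 9 to 15 in SLO. ERBB2, the partner of EGFR and ERBB3, was at −0.01 in SLO (SE 0.0527, edgeR adjusted p = 0.874), from 65.3 to 73.3 CPM in VEH to 64.6 to 72.3 in SLO.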
